A study of Mus musculus with 4 samples.

Results

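Bdnf, Ntf3, Ntrk2, Ntrk3, Ngfr, Sort1, Creb1 and Crtc1 are the genes of 2 neurotrophins, 4 of their receptors, the transcription factor CREB and a CREB coactivator. They were followed in brain cortex from male mice of the SAMP8 strain, which is used as a model of early ageing with a decline of memory. The genes were taken by their platform gene symbol. Of the 8 symbols, 7 had a probe set, 1 each, among 22206 gene probe sets, and Ntf3 had no named probe set and was not analysed here. All 7 entered the tests, since no filter on low values was applied. The TCQA group received TCQA by mouth at 5 mg/kg each day for 1 month from 11 months of age, and the control group received MilliQ water. All mice had been housed singly for 4 months from 7 months of age, so the controls also carry that housing, and a strain that does not age early was not among the groups. Each group had 2 arrays. Whether the arrays within a group stem from different mice is not stated in the labels. The p-values therefore cover the spread between samples only, and that spread may be technical.

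Neurotrophins are small secreted proteins that keep neurons alive and strengthen synapses. BDNF binds the kinase receptor TrkB, the product of Ntrk2, and neurotrophin-3 binds TrkC, the product of Ntrk3. Kinase cascades below these receptors phosphorylate CREB, which binds a short DNA element near the start of activity-dependent genes, and Bdnf is itself such a gene. In the cortex excitatory neurons are the main source of BDNF, and astrocytes carry a truncated TrkB without the kinase.

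The values are log2 signals that are comparable between arrays for a probe set and were not set against those of another probe set. Across genes the 4 arrays correlated at 0.991 to 0.993. The median negative control probe set, which marks dim genes, lay at 7.17 to 7.32. Markers of cortical excitatory neurons were far above it on every array, with Slc17a7 between 16.03 and 16.68 and Tbr1 between 13.26 and 13.90. The striatal marker Drd2 was also present, at 11.29 to 11.86. The choroid plexus marker Ttr ran between 7.49 and 16.42, with control replicate 1 lowest and control replicate 2 highest. The pieces of tissue may thus not have been alike, which was not tested. Thalamic neuron markers differed in part with the groups: 5 of 6 had a higher mean with TCQA, with a median difference of 0.62. The list mean was 9.86 and 10.40 on the TCQA arrays and 9.25 and 9.70 on the control arrays, without overlap. Single markers did not all share this. The groups did not overlap for 3 of the 6, Calb2, Slc17a6 and Lef1, and for 36.6% of all gene probe sets. Tcf7l2, Prkcd and Rora overlapped, and Tcf7l2 was lowest on TCQA replicate 1, at 9.71. Calb2 had the largest difference of the list. Of the 6, only Lef1 was under the negative control median on every array. Among them Calb2, a calcium-binding protein gene that inhibitory neurons also express, was 2.83-fold higher (log2 SE 0.22, limma unadjusted p = 0.000388, adjusted p = 0.787) and met the depositors' criterion given next. Slc17a6, a vesicular glutamate transporter gene, differed by 0.88 (SE 0.42), with 0.21 without TCQA replicate 2 and 1.56 without TCQA replicate 1. Of all gene probe sets 0% passed limma with Benjamini-Hochberg adjustment (0 of 22206), 0.374% met the depositors' criterion (a fold change over 2 at an unadjusted p under 0.05), and 6.24% had an unadjusted p under 0.05.

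The comparison asked whether the neurotrophin system differed in transcript level after 1 month of TCQA. In signal, all 7 measured genes were close to their control level. Ngfr was under the negative control median on every array, so the size of its difference is less certain. The differences, as TCQA minus control, ran between -0.22 for Creb1 and 0.19 for Ntrk2 on the log2 scale, with standard errors of 0.17 to 0.21. By limma 0 of the 7 passed the adjusted threshold, 0 met the depositors' criterion and 0 had an unadjusted p under 0.05. The smallest limma adjusted p among them was 0.862. Every 95% confidence interval spanned 0. The bound farthest from 0 was 0.66, or about 1.58-fold, the upper bound of Crtc1. A 2-fold difference in signal in either direction thus lay outside the interval of each gene in this fit, while smaller differences lay inside. In this fit the variance of each gene was moderated by those of all genes. Without moderation Crtc1 had a standard error of 0.23 on 2 degrees of freedom, and its interval is then wider and includes 2-fold. With 2 arrays against 2 an exact permutation test of a single gene cannot go below p = 0.333, two-sided.

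**Figure D1:**
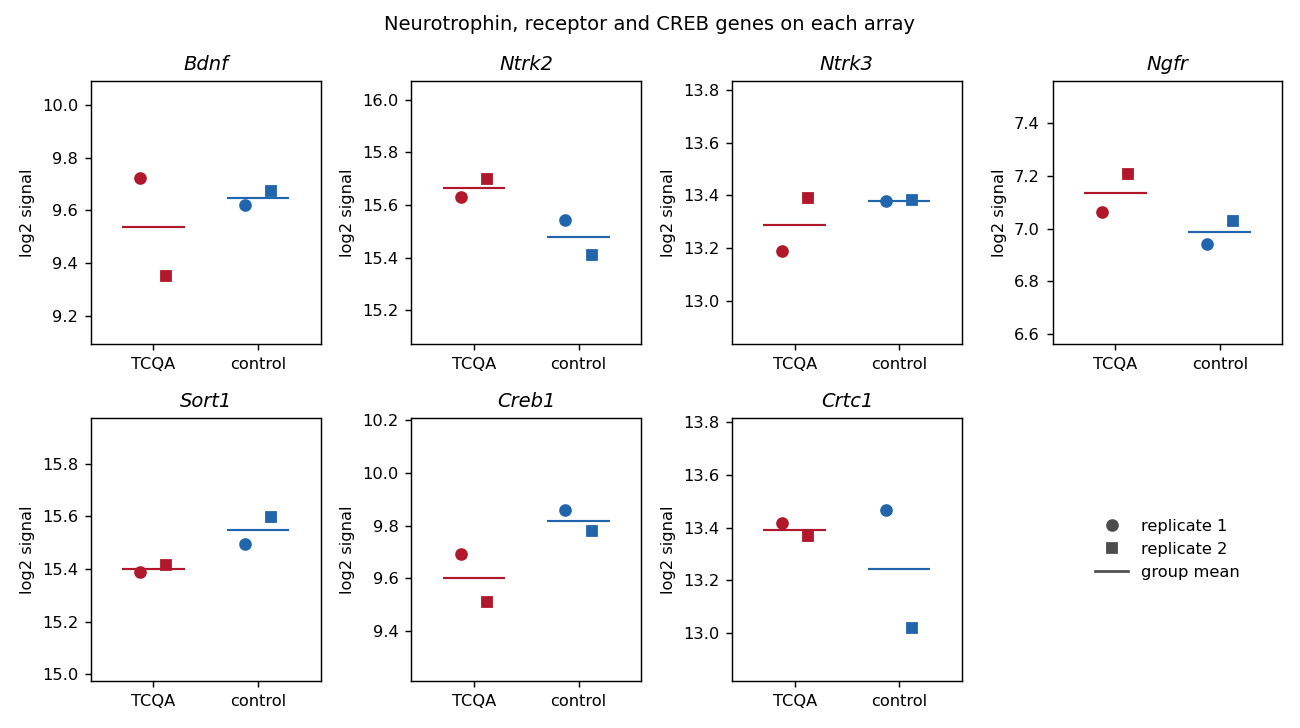
The log2 signal of 7 genes on each array, with TCQA arrays in red left of control arrays in blue, circles for replicate 1, squares for replicate 2 and bars for group means. Each vertical axis spans 1 log2 unit around the gene mean, and the values of each gene lie within 0.20 to 0.45 of each other.

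Bdnf encodes brain-derived neurotrophic factor, the main activity-dependent neurotrophin of the adult cortex. It had log2 signals of 9.72 and 9.35 with TCQA, against 9.62 and 9.68 in control. The TCQA arrays were the highest and the lowest of the 4, so the groups overlapped. The difference was -0.11 (95% confidence interval -0.60 to 0.38, limma adjusted p = 0.945). It turned to 0.076 without TCQA replicate 2. The probe set is annotated to 11 RefSeq transcripts of Bdnf, so transcripts from its different promoters were not told apart.

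Bdnf has several promoters, and the RefSeq table (build GRCm38.p6) gives 7 start windows for it. The letters TGACG, the core of the CREB element, were searched in the 250 bases before each start, with CGTCA on the other strand. Of the 7 Bdnf windows 1 held a match, 35 bases before the start. That window, chr2:109692186-109692435 on the plus strand, is shown because it is the Bdnf start with the CREB letters, with the match in capitals.
Bdnf, the third start: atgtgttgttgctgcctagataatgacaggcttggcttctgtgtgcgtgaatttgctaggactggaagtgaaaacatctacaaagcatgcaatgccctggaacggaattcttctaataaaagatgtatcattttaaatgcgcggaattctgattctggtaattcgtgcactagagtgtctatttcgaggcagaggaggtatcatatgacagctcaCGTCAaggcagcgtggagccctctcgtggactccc
The windows of Creb1, Crtc1, Ngfr and Ntrk2, 1 each, and those of Ntf3, 2, held no match. Ntrk3 and Sort1 were not in the table. These letters were in 17.8% of all 32851 windows. A match is a description of the letters only.

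Ntrk2, the gene of the BDNF receptor TrkB, had the largest positive difference of the 7. Its log2 signals were 15.63 and 15.70 with TCQA, against 15.54 and 15.41 in control. Both TCQA arrays were above both control arrays. The difference of 0.19 (95% confidence interval -0.24 to 0.61) corresponds to 1.14-fold and did not pass limma (adjusted p = 0.876). Its direction was kept without each array in turn, at 0.12 to 0.25. The probe set is annotated to 3 transcripts, so the kinase form and the truncated form that astrocytes carry were not told apart.

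Astrocyte markers stood in the same direction as Ntrk2. Of the 6 markers 5 had a higher mean with TCQA, with a median difference of 0.21 and 0 at an unadjusted p under 0.05. The water channel Aqp4 differed by 0.38 (SE 0.18). The mean log2 signal of the list was 12.59 and 12.82 on the TCQA arrays and 12.45 and 12.61 on the control arrays, so the groups overlapped, and none of its 6 markers lay under the negative control median on every array. Endothelial markers stood in this direction too, with 5 of 6 higher and a median of 0.20. Pecam1 was the 1 lower, at -0.26 (SE 0.18). The groups did not overlap for any of the 6, 5 higher and 1 lower, and for 36.6% of all gene probe sets. The transporter gene Slco1a4 and the surface protein gene Ly6c1 differed by 0.47 (SE 0.18) and 0.46 (SE 0.18), each at an unadjusted p under 0.05. The endothelial list mean was 10.25 and 10.27 on the TCQA arrays and 10.13 and 9.997 on the control arrays, and none of the 6 was under the negative control median on every array. The part of astrocyte, endothelial or thalamic content in the Ntrk2 value was not tested. In bulk tissue more or fewer cells of a type and more or less RNA per cell cannot be told apart.

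Ntrk3, the gene of the neurotrophin-3 receptor TrkC, had log2 signals of 13.19 and 13.39 with TCQA, against 13.38 and 13.38 in control. The control pair was nearly identical and TCQA replicate 1 was the low array. The difference was -0.09 (95% confidence interval -0.53 to 0.34, limma adjusted p = 0.949), and 0.010 without TCQA replicate 1.

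Ngfr encodes the shared receptor that binds all neurotrophins and, with sortilin, their proforms. Its log2 signals were 7.06 and 7.21 with TCQA, against 6.94 and 7.03 in control. Both TCQA arrays were above both control arrays, but on all 4 arrays Ngfr lay under the median of the negative controls. It differed by 0.15 between dim values (95% confidence interval -0.28 to 0.58, limma adjusted p = 0.901). Its size is less certain than that of the other 6 genes.

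Sort1, the gene of sortilin, which sorts BDNF into the secretory pathway and acts with Ngfr as a receptor for proneurotrophins, stood the other way. Its log2 signals were 15.39 and 15.42 with TCQA, against 15.50 and 15.60 in control. The groups did not overlap, and the TCQA pair had an SD of 0.02. The difference was -0.15 (95% confidence interval -0.56 to 0.27, limma adjusted p = 0.901), with a range of -0.20 to -0.10 without each array in turn.

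Creb1, the gene of the transcription factor CREB, had the largest difference in size among the 7. Its log2 signals were 9.69 and 9.51 with TCQA, against 9.86 and 9.78 in control. Both TCQA arrays were below both control arrays. The difference of -0.22 (95% confidence interval -0.65 to 0.22) is 1.16-fold lower with TCQA and did not pass limma (adjusted p = 0.862). It stayed between -0.31 and -0.13 without each array in turn.

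Excitatory neuron markers stood in the same direction as Creb1 and Sort1. All 5 measured had a lower mean with TCQA, with a median difference of -0.28 and 1 at an unadjusted p under 0.05. That marker was the spine protein gene Nrgn, whose difference was -0.70 (SE 0.23). The mean log2 signal of the list was 15.09 and 14.55 on the TCQA arrays and 15.23 and 15.06 on the control arrays. The groups overlapped, with TCQA replicate 2 the low array. None of the 5 was under the negative control median on every array. Inhibitory neuron markers did not share this direction, with 3 of 6 higher, 3 lower and a median of 0.18. Gad2 and Slc32a1, genes of GABA synthesis and vesicular transport, differed by 0.54 (SE 0.24) and 0.50 (SE 0.27). Each was without overlap between the groups, as were 36.6% of all gene probe sets. The other markers overlapped, with Gad1 at 0.38 (SE 0.36), Vip at -0.21 (SE 0.22), Pvalb at -0.20 (SE 0.23) and Sst at -0.02 (SE 0.18). The inhibitory list mean was 12.13 and 11.96 on the TCQA arrays and 11.86 and 11.90 on the control arrays, and none of the 6 was under the negative control median on every array. The part of neuronal content, of either kind, in the Creb1 and Sort1 values was not tested.

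Crtc1 encodes a coactivator that moves to the nucleus on calcium and cyclic AMP signals and binds CREB. Its log2 signals were 13.42 and 13.37 with TCQA, against 13.47 and 13.02 in control. Control replicate 1 was the highest of the 4 arrays and control replicate 2 the lowest, so the groups overlapped. The difference was 0.15 (95% confidence interval -0.37 to 0.66, limma adjusted p = 0.925). Leaving out control replicate 2 turned it to -0.076, and leaving out control replicate 1 gave 0.37.

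**Figure D2:**
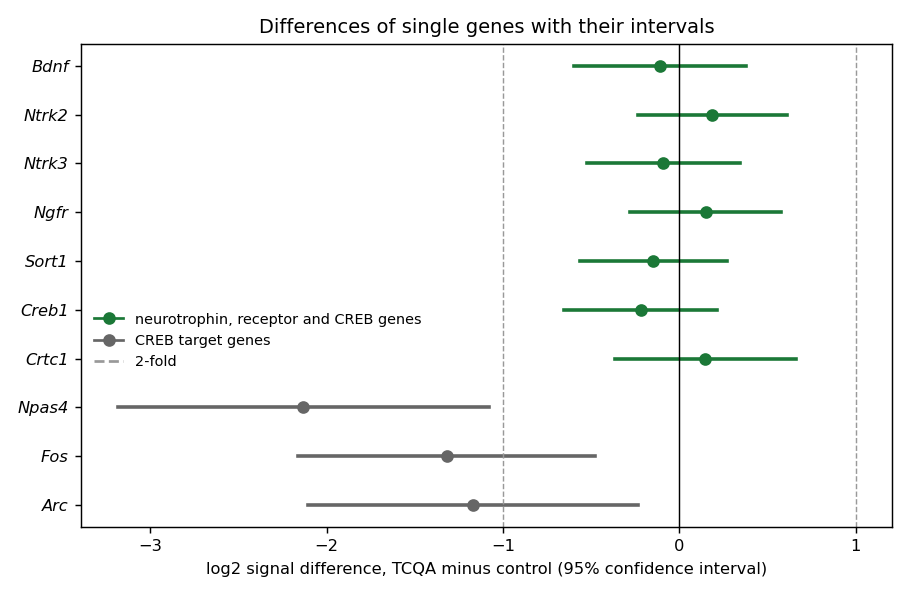
The log2 difference, TCQA minus control, of 7 neurotrophin, receptor and CREB genes in green and of the CREB target genes Npas4, Fos and Arc in grey, with 95% confidence intervals from limma. The green intervals all include 0 and, with moderated variances, stay inside the dashed 2-fold lines, with a farthest bound of 0.66. The grey estimates lie between -2.13 and -1.17 with all arrays. Without control replicate 1 those of Fos and Arc are -0.79 and -0.66. The size for Npas4 is uncertain because its TCQA arrays are under the negative control median, and that for Ngfr because every array is.

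Among the 7 genes, 4 had groups that did not overlap, 2 higher (Ntrk2 and Ngfr) and 2 lower (Sort1 and Creb1). Over all gene probe sets 36.6% had groups that did not overlap, 18.9% higher and 17.8% lower. Of the 7, 3 had a higher and 4 a lower mean with TCQA, with a median difference of -0.09, against a median of 0.01 over all gene probe sets. The direction of Ntrk2, Ngfr, Sort1 and Creb1 was kept whichever array was left out, and that of Bdnf, Ntrk3 and Crtc1 turned without 1 array. No array was the highest or the lowest for all 7. TCQA replicate 2 was the lowest for Bdnf and Creb1 and the highest for Ntrk2, Ntrk3 and Ngfr. The range over the 4 arrays was 0.20 for Ntrk3, the smallest, and 0.45 for Crtc1, the largest. The median range of the 7 was 0.29, against 0.47 over all gene probe sets, and 6 of the 7 had a standard error under the gene median of 0.20. These sets differ in signal. Of all gene probe sets 10642 of 22206 were under the negative control median on every array, against 1 of the 7. The part of signal level in the spread was not tested.

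**Figure D3:**
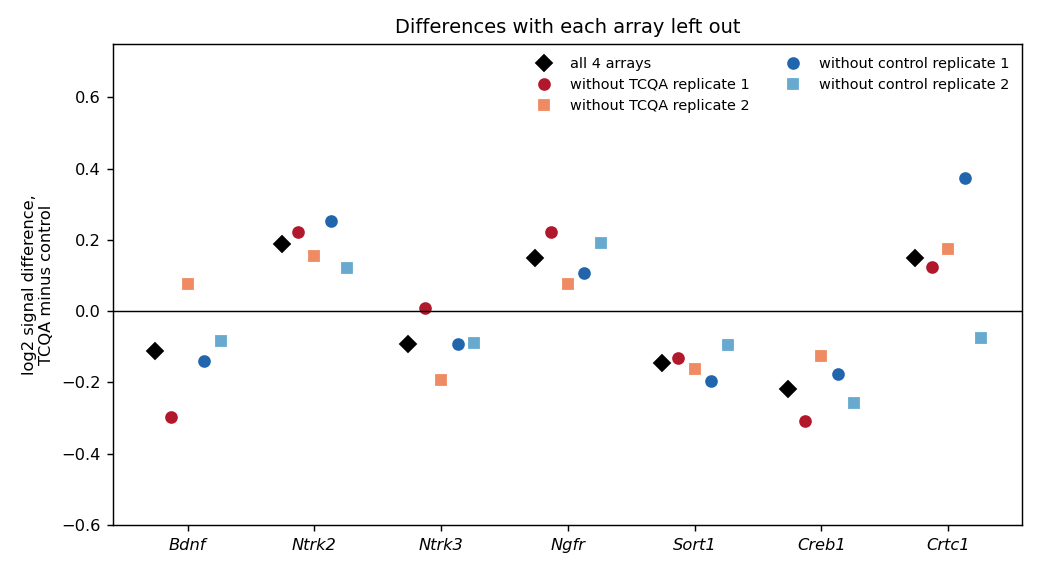
The log2 difference, TCQA minus control, of each gene from all 4 arrays (black diamonds) and without each array in turn (colours, circles for replicate 1 and squares for replicate 2). Bdnf, Ntrk3 and Crtc1 cross 0 when 1 array is left out, to 0.076, 0.010 and -0.076.

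The array profile of each gene was also set against those of 116 other pathway genes with a signal at or above the gene median, as the root mean square difference of centred log2 values over the 4 arrays. The profile most like that of Bdnf was that of Ppargc1a, a coactivator of mitochondrial genes, at 0.035, followed by Homer1, a synaptic scaffold gene, at 0.049. In all 3 the low array was TCQA replicate 2. Creb1 was most like Camkk2, a calcium-dependent kinase gene, at 0.030, and the sortilin relative Sorcs1 at 0.038. Crtc1 was most like the kinase gene Camk1d at 0.046 and the CREB relative Creb3 at 0.048, with control replicate 2 low for each. These rest on 4 arrays and describe likeness only.

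The rest of the pathway was read through 5 lists by role, with 129 of 148 listed genes measured. At an unadjusted p under 0.05, 9 of the 129 were lower, against 2.86% of all gene probe sets, and 0 were higher, against 3.38%. By limma 0 of the 129 passed the adjusted threshold. Of the 9, 7 were CREB and BDNF target genes. The lists were written with earlier results of these data known, so these counts were not independent of the choice of genes. The count of 0 higher also depended on the fit, with 4 higher without moderation of the variances.

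Of the other neurotrophins and coreceptors 11 of 15 were measured, and 0 had an unadjusted p under 0.05. Their median difference was -0.15, with 8 lower and 3 higher means. Lingo1, which forms a receptor complex with Ngfr, had log2 signals of 15.31 and 15.29 with TCQA, against 15.64 and 15.58 in control. The groups did not overlap and the difference was -0.31 (SE 0.17, limma adjusted p = 0.818). Sorcs1 and Sorcs3, relatives of sortilin, differed by -0.28 (SE 0.19) and -0.24 (SE 0.20). Maged1, an adaptor that binds Ngfr, differed by -0.36 (SE 0.24), mostly through a high value of 14.40 in control replicate 2. Ntf5, the gene of another TrkB ligand, was dim on every array at 4.02 to 4.34.

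Of the processing and release genes 13 of 15 were measured, with a median of -0.01 and 0 at an unadjusted p under 0.05. The proprotein convertase gene Pcsk7 had log2 signals of 8.17 and 7.80 with TCQA, against 8.52 and 8.42 in control, and differed by -0.49 (SE 0.20). Pcsk1, a convertase of secretory granules, had 9.74 and 9.38 with TCQA, against 10.50 and 9.80 in control, a difference of -0.59 (SE 0.28). Leaving out control replicate 1 gave -0.24, and leaving out the other control array gave -0.94. Both genes had groups that did not overlap. Furin, the convertase that cleaves proneurotrophins in the secretory pathway, differed by -0.01 (SE 0.18).

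Trk adaptors and kinase cascades had a median of 0.01 over 32 of 41 listed genes. In this list 1 gene had an unadjusted p under 0.05, against 6.24% of all gene probe sets, and it was lower. That gene was Frs3, an adaptor that docks on Trk receptors, with 5.29 and 5.15 with TCQA, against 5.88 and 5.78 in control. It was dim on every array, under the negative control median. Rapgef1, an exchange factor downstream of the adaptor Crk, differed by -0.42 (SE 0.18), while the kinase genes Map2k2 and Mapk7 differed by 0.37 (SE 0.18) and 0.34 (SE 0.17). Plcg1, the phospholipase that Trk receptors recruit, differed by -0.24 (SE 0.18) and the survival kinase gene Akt1 by -0.05 (SE 0.17).

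The CREB relatives, kinases and coactivators had a median of 0.03 over 34 of 37 listed genes, with 17 higher and 17 lower means. In this list 1 of the 34 had an unadjusted p under 0.05, against 6.24% of all gene probe sets. It was Sik1, a kinase that keeps CRTC coactivators out of the nucleus and is itself induced by CREB. Its log2 signals were 8.21 and 7.95 with TCQA, against 8.70 and 8.43 in control, a difference of -0.49 (SE 0.20, limma unadjusted p = 0.0497, adjusted p = 0.798). Over the alternatives with all arrays its unadjusted p ran from 0.030 (limma, negative control filter) to 0.12 (no moderation). Crebbp, the histone acetyltransferase that CREB recruits, had 14.21 and 14.12 with TCQA, against 14.56 and 14.43 in control. Its difference was -0.33 (SE 0.18), and that of its relative Ep300 was -0.18 (SE 0.18). Adcy1, a calcium-stimulated adenylyl cyclase, differed by -0.45 (SE 0.21) and Adcy3, another adenylyl cyclase, by 0.36 (SE 0.17). Camk4, a nuclear kinase of CREB, differed by 0.23 (SE 0.18), and Camk2a, the abundant synaptic kinase, by -0.28 (SE 0.17). The CREB relative Atf1 differed by 0.23 (SE 0.23), but by 0.029 without TCQA replicate 1 and 0.027 without control replicate 2. The coactivator genes Crtc2 and Crtc3 differed by -0.11 (SE 0.19) and 0.19 (SE 0.23).

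**Figure D4:**
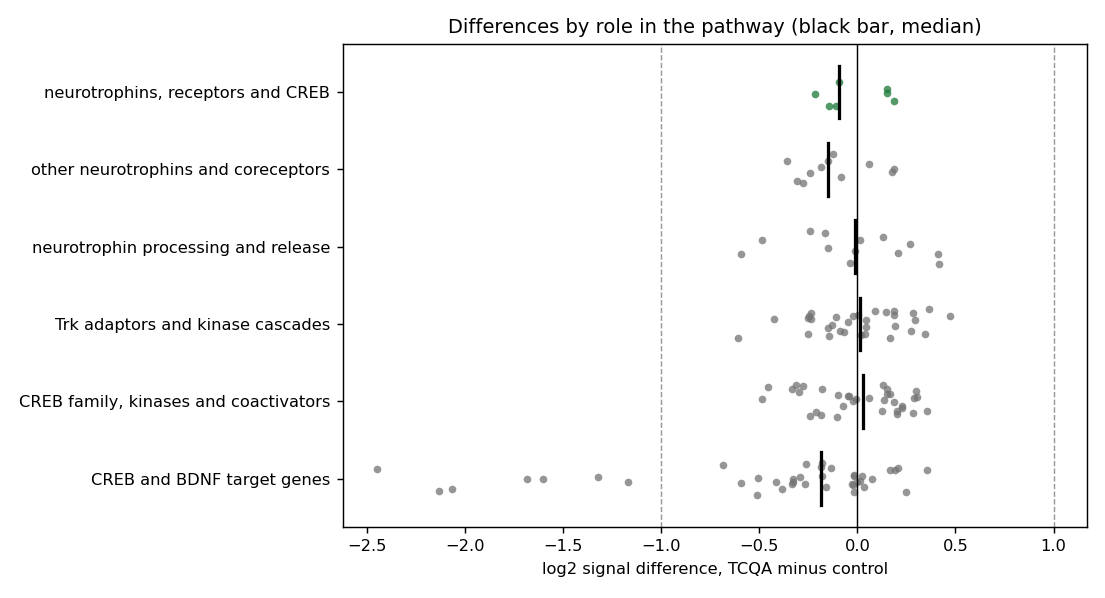
The log2 difference, TCQA minus control, of each measured gene by role, with 7 neurotrophin, receptor and CREB genes in green, 5 lists of other pathway genes in grey and black bars for medians. Every point beyond the dashed 2-fold lines, 7 in all, is among the CREB and BDNF target genes, on the lower side.

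The CREB and BDNF target genes held every difference over 2-fold among these lists. Of 39 measured 30 had a lower mean with TCQA and the median was -0.18. By the depositors' criterion 7 were lower, against 0.171% of all gene probe sets, and 0 higher. The 7 were Dusp1, Junb, Npas4, Nr4a1, Fos, Arc and Btg2, all activity-induced early genes, and earlier results of these data had already shown them lower. Npas4, an activity-dependent transcription factor, had 6.84 and 6.33 with TCQA, against 9.37 and 8.06 in control. The TCQA values of Npas4 and of Btg2 lay under the negative control median on both arrays, so the size of these differences is uncertain. Fos had 8.23 and 8.10 with TCQA, against 10.01 and 8.95 in control. Dusp1, which encodes a MAP kinase phosphatase, had 12.53 and 12.15 with TCQA, against 14.93 and 13.89 in control. For these 3 genes both TCQA arrays were below both control arrays, and control replicate 1 was the highest. Of the 39 target genes 27 had their highest signal on control replicate 1, against 2 of the 7 neurotrophin, receptor and CREB genes (Creb1 and Crtc1). Over all gene probe sets 5292 of 22206 had their highest signal on that array. Without control replicate 1 the target median was -0.09. Fos then differed by -0.79 and Arc by -0.66, both under 2-fold. Without moderation of the variances, on all arrays, 0 of the 39 target genes were lower by the criterion. The thalamic and endothelial list means were higher with TCQA, without overlap between the groups, as given above. Of the 6 single thalamic markers only 3 were without overlap. The excitatory neuron list mean was lower with TCQA, but the groups overlapped. Among these markers Calb2 was 2.83-fold higher and Nrgn had a log2 difference of -0.70. The part of these cell types in the target gene values was not tested. Bdnf, a target of CREB as well, was not among the genes with that array highest, at 9.62 in control replicate 1. Of the other targets, Vgf, a secreted neuropeptide precursor, differed by 0.25 (SE 0.19). Nptx2, a secreted organiser of synapses, had 7.69 and 7.71 with TCQA, against 7.78 and 7.61 in control. Early genes were not all without overlap. Fosb, Egr1 and Nr4a2 overlapped between the groups, at -0.02 (SE 0.20), -0.33 (SE 0.24) and -0.68 (SE 0.38).

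**Figure D5:**
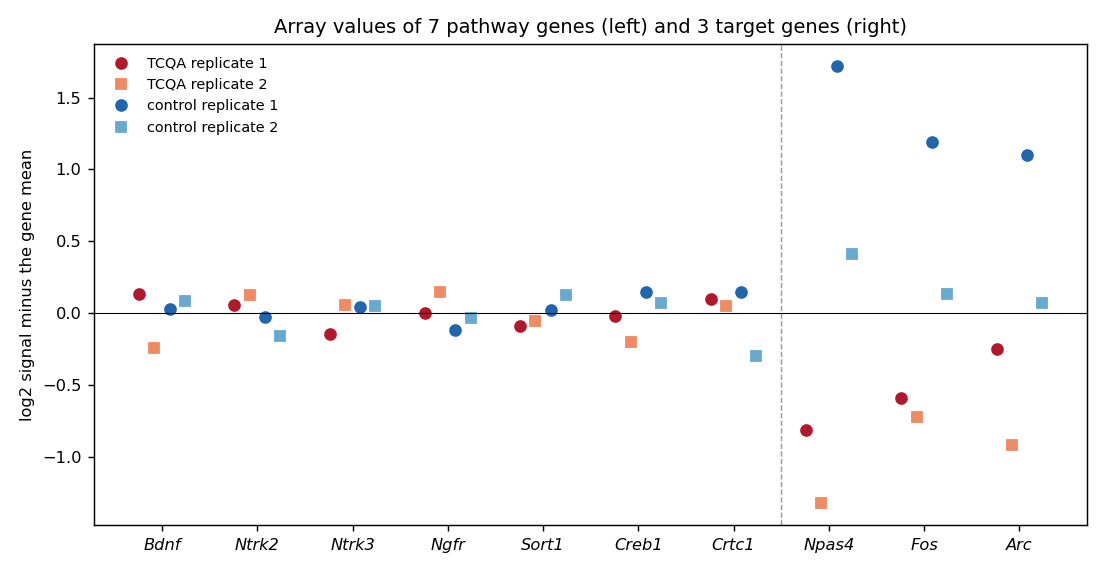
The log2 signal of each array minus the mean of that gene over 4 arrays, for 7 neurotrophin, receptor and CREB genes left of the dashed line. Npas4, Fos and Arc, right of it, are among the 7 of 39 measured target genes that met the depositors' criterion. The range over arrays is at most 0.45 on the left, against 1.92 for Fos and 2.02 for Arc, where control replicate 1 is the highest, as it is for Npas4, whose TCQA values lie under the negative control median and leave its range uncertain.

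The promoters of the target genes carried the CREB letters more often than those of the neurotrophin system, as counts. Of 33 start windows of 27 target genes 69.7% held TGACG or CGTCA, against 7.69% of 13 windows of the neurotrophin, receptor and CREB genes and 17.8% of all windows. The full palindrome TGACGTCA, which contains both, was in 12.1% of the target windows, in 0 of the 13 and in 1.55% of all. The target list was written from knowledge of CREB, so these shares were not independent of the list. Stretches of 3 target promoters are shown for comparison with the Bdnf window above, from the same table and build, with the matches in capitals. They are Npas4 at chr19:4990116-4990170 on the minus strand, Fos at chr12:85473741-85473848 on the plus strand and Dusp1 at chr17:26508588-26508683 on the minus strand.
Npas4: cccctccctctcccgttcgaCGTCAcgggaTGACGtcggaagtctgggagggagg
Fos: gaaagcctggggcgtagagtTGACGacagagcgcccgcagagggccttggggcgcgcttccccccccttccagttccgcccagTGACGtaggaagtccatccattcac
Dusp1: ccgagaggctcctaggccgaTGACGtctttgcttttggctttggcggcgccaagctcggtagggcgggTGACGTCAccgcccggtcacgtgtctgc
Dusp1 holds the full palindrome, and the Bdnf window, like those of Npas4 and Fos, holds the shorter core.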

How the data were processed

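Each array of the Clariom S mouse type has 1 deposited log2 signal for every probe set. The authors computed these, per the labels' protocols, with SST-RMA in the Transcriptome Analysis Console (version 4.0.2) from 100 ng of RNA. The build behind the probe annotation was not used here. Of 28846 rows 6640 control probe sets were left out, and 22206 gene probe sets were tested. Symbols came from the platform annotation, updated by gene ID. Differences were fitted with limma 3.58.1 (R 4.3.3), two-sided, as TCQA minus control, with Benjamini-Hochberg adjustment over all gene probe sets. The procedure was tested on simulated data. The genes and lists were chosen with earlier results of these data known. All 7 measured genes of the set were named. From each wider list the rule named up to 4 genes with the smallest p and a fixed set, and a symbol with several probe sets was read from its brightest. Btg2, Fosb, Egr1, Nr4a2 and the single cell type markers were named after their values were seen. Alternatives were 3 variants of the variance model, 2 normalizations, 2 filters on dim probe sets, the replicate number as a block, and each array left out. The labels do not state that same-numbered arrays are pairs, and the numbers were not taken as pairs. Same-numbered arrays deviated together with a correlation of 0.05 across all genes, which does not settle pairing for single genes. With the replicate number as a block the standard error of Arc fell from 0.39 to 0.20, and that of Ntrk2 rose from 0.17 to 0.19. The number of arrays limits the precision.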

Additional observations from a re-analysis of the deposited data

How the results depend on the processing

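Over 12 alternatives the 7 neurotrophin, receptor and CREB genes had 82 values, since both filters on dim probe sets removed Ngfr. Of the 82, 79 kept their direction and 0 passed the adjusted threshold (smallest adjusted p = 0.724). Each array left out in turn gave ranges of -0.30 to 0.076 for Bdnf, -0.19 to 0.010 for Ntrk3 and -0.076 to 0.37 for Crtc1. Among other pathway genes it gave -0.086 to 0.205 for Sorl1, -0.077 to 0.057 for Furin, -0.087 to 0.084 for Nptx2, -0.24 to 0.031 for Crtc2, -0.10 to 0.0039 for Akt1 and -0.083 to 0.46 for Crtc3. With each array left out the count of all probe sets past the adjusted threshold ran from 0 to 4 and of those past the depositors' criterion, 83 with all arrays, from 160 to 291. Without moderation that count was 25, and it was 42 and 41 with the filters at the gene median and at the negative control median. The CREB and BDNF target genes lower by the criterion ran from 5 to 9 with each array left out and were 0 without moderation. Of the 129 other pathway genes, 9 had an unadjusted p under 0.05, all lower. With each array left out it was 9 to 15, lower 6 to 15 and higher 0 to 3. It was 19 with an intensity trend, 17 lower and 2 higher. Without moderation 5 were lower and 4 higher. With the negative control filter it was 14, and each filter gave 2 higher. With the replicate number as a block, which is not known to pair the samples, it was 14, with 1 higher, and no gene named here changed its side of the adjusted threshold. The cause of these shifts was not tested. With 1 array left out, the lone array of its group is assumed to vary like the others.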
